A study of Mus musculus with 6 samples.

Results

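The 10 genes Ezh2, Ezh1, Eed, Suz12, Jarid2, Rnf2, Pcgf6, Mga, Max and L3mbtl2 encode the core of Polycomb repressive complex PRC2 and the defining subunits of the variant complex PRC1.6. The set is given by gene name and makes up 10 of the 27998 genes in the deposited table of unique molecular identifiers (UMIs). They were followed in male germ cells of mouse testes at embryonic day 14.5, in 3 libraries of Rb1 conditional knockout (cKO) mice and 3 libraries of control mice labelled wildtype, all on a background given as Mixed C57/B6 and 129. Cells had been sorted for the red fluorescent protein tdTomato and captured with 10x Genomics v2 chemistry, which counts transcripts at their 3′ end. The Cre driver, the deleted part of Rb1, any allele the controls carry besides tdTomato, and whether a library is 1 animal or a pool were not given in the sources used here. P-values therefore measure the spread between these libraries, which may be technical.

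PRC2 places 3 methyl groups on lysine 27 of histone H3 (H3K27me3) through its catalytic subunit EZH2 or EZH1, with EED and SUZ12 as the scaffold and JARID2 as a subunit that helps to recruit it. PRC1 complexes carry RNF2 (RING1B), a ligase that attaches ubiquitin to histone H2A. In PRC1.6 this ligase is joined by PCGF6 and L3MBTL2 and is brought to DNA by MGA with its partner MAX, which bind E-box sequences, and by E2F6 with a DP protein. In embryonic stem cells PRC1.6 keeps germline and meiotic genes silent. In germ cells many of these genes are active. RB1, the retinoblastoma protein, binds activating E2F factors, and Ezh2 and Eed are known E2F targets in human and mouse fibroblasts.

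The 6 libraries held 480, 948 and 1164 cell barcodes in cKO and 784, 430 and 1354 in control. Of 5160 barcodes, 5154 were kept, with 7598511 to 17323152 UMIs in a library. The authors' 5 clusters are given without names and are called here by number and leading genes: cluster 0 (2210 cells, led by Ccne1 and Rrm2), cluster 1 (1863 cells, led by Cdc20 and Hmmr), cluster 2 (640 cells, led by the histone genes Hist1h1d and Hist1h1e), cluster 3 (343 cells, led by Rpgrip1 and Slc24a5) and cluster 4 (98 cells, led by Dcxr and Phlda3). The summed level of 6 germ cell markers was 6110 to 6737 CPM (UMI counts scaled to a common library size) in cKO libraries and 6065 to 6834 CPM in control libraries. That of 5 Sertoli cell markers was 4.64 to 7.46 CPM in cKO and 3.84 to 17.8 CPM in control, and that of 5 endothelial markers 43.8 to 59.7 CPM in cKO and 49.99 to 69.0 CPM in control, both highest in control 3. Of 5 Leydig cell markers 3 were detected, at a sum of 0.768 to 1.19 CPM in cKO and 0.635 to 1.45 CPM in control, and Hsd3b1 and Insl3 had no UMI. The sum of 5 erythroid markers was 5.89 to 17.9 CPM in cKO and 9.08 to 27.1 CPM in control. Across libraries, 9 barcodes were shared. Rb1 had 3.35, 3.72 and 3.64 CPM in cKO against 10.3, 8.64 and 7.12 CPM in control. All cKO libraries lay below all control libraries, on 27 to 119 UMIs, with a log2 fold change of -1.27 ± 0.19 (SE) and an edgeR adjusted p of 0.415. It passed the threshold with DESeq2 (adjusted p of 0.0479), without the low-count filter (0.0181) and without control 3 (0.0422). Within clusters, Rb1 was lower in every cKO library than in every control library in clusters 0, 1 and 2. Its groups overlapped in clusters 3 and 4, on 0 to 10 and 0 to 4 UMIs in a library. Since the deleted part is not given, the remaining 3′ reads may lie outside it. In control 3, cluster 3 held 25 cells with a median of 4654 UMIs, against medians of 12699 to 15999 UMIs in the other libraries.

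All 10 members were detected in every library and passed the filter on low counts. In the sums over all cells, the levels of single members ran between 16.1 CPM (Ezh1, cKO 2) and 184 CPM (Ezh2, cKO 2), and no order among the members is drawn from levels that are not per length. For 9 of the 10 members the cKO and control libraries overlapped. Ezh2 was the exception and was higher in cKO. The log2 fold change was above 0 for 5 members and below 0 for 5, with a median of -0.01, and the median over all 11540 genes tested was 0.0001. None of the members passed an edgeR adjusted p of 0.05 in all cells, as was the case for every other gene, so that the background was 0% (0 of 11540). At an unadjusted p under 0.05 stood 1 member, Ezh2, and 3.51% of all genes. DESeq2 called 3 genes in all cells, none of them a member.

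**Figure D1:**
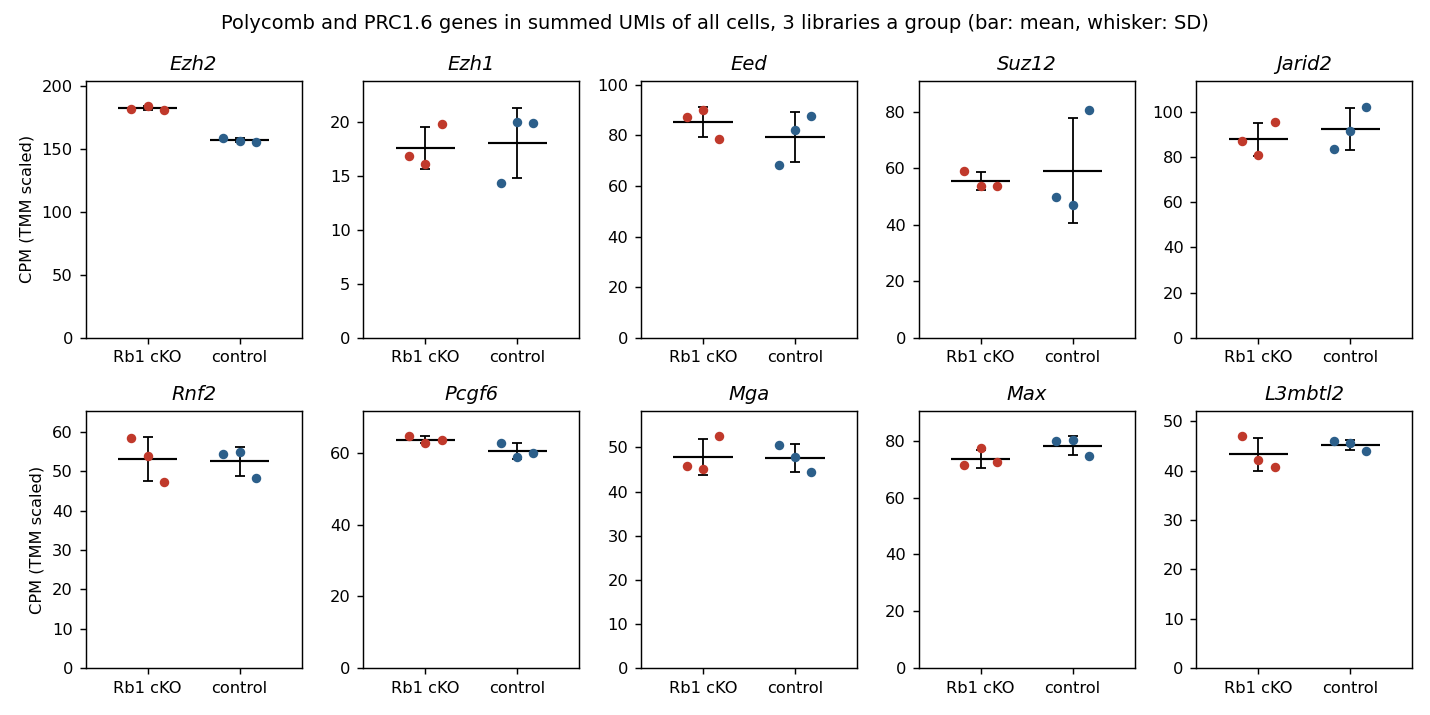
CPM of each member in the summed UMIs of all cells (y axis, from 0), with cKO libraries on the left and control libraries on the right; points are libraries, bars the mean and whiskers the SD (n = 3 each). Ezh2 is the member whose groups do not overlap, with cKO libraries at 181 to 184 CPM and control libraries at 156 to 159 CPM, and Suz12 has a control library at 80.6 CPM apart from the rest.

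Ezh2, the catalytic subunit of PRC2 that prevails in dividing cells (chr6:47530139-47595341, minus strand), had 182, 184 and 181 CPM in cKO libraries against 159, 157 and 156 CPM in control libraries. Each cKO library was above each control library, and within a group the libraries were nearly level. Over all genes tested, 4.71% had all cKO libraries above all control libraries and 4.22% had them all below. The means were 183 ± 1.55 CPM in cKO and 157 ± 1.59 CPM in control (SD, n = 3 each). The log2 fold change was 0.21 ± 0.063 (SE), with an unadjusted p of 0.00711 and an adjusted p of 0.994 by edgeR, so the difference did not pass the test over all genes. The coefficient of variation between libraries, 0.85% in cKO and 1.01% in control, was below the 2.17% and 2.41% that counting error alone gives for 1215 to 2986 UMIs. A spread taken from 3 libraries is itself uncertain and can fall below counting error by chance. The closeness of the libraries is therefore not a measure of how precise the difference is. In the 14 alternative fits the log2 fold change lay between 0.18 and 0.24, the unadjusted p was under 0.05 in 14 of 14 and the lowest adjusted p was 0.57. A draw of equal cell numbers from each cluster was among them, and Ezh2 was higher in cKO there as well. The mix of cells within a cluster was not tested.

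The promoter of Ezh2 is shown because it is the only member promoter that holds the E2F motif TTGGCGC, one of the sequences read by the factors that RB1 binds. The sequence is from RefSeq on GRCm38.p6 (chr6:47595011-47595280, minus strand), runs from 250 bases before to 20 bases after the annotated start, and has the motif in capitals, beginning 4 bases downstream of the start.
Ezh2: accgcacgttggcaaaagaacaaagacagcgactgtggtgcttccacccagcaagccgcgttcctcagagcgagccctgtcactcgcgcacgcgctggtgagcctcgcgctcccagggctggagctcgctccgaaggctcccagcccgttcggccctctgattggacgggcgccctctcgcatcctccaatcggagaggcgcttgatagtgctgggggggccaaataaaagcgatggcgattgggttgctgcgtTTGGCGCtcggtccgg
In windows of 300 bases around the start, this motif stood in 1 of 11 member promoters (10 genes), against 2.45% of 32851 promoters in the table. The E2F motif TTCCCGC stood in 1 member promoter (Suz12), against 4.6% of all promoters. Suz12 thus also holds an E2F motif, and its cKO and control libraries overlapped in all cells. The E2F6 motif TCCCGC, which lies within TTCCCGC, stood in 4 member promoters of 3 genes (Rnf2, Suz12 and Jarid2), or 36.4%, against 20% of all promoters. The E-box CACGTG stood in 1 member promoter, that of Max, against 7.15% of all promoters. The promoters of Eed, Ezh1, Mga, Pcgf6 and L3mbtl2 held none of these motifs. Matches on both strands were counted. They describe letters in these windows and not bound sites.

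Within clusters, Ezh2 lay higher in every cKO library than in every control library in clusters 0, 1 and 2. In cluster 0 it had 207, 205 and 206 CPM in cKO libraries against 178, 164 and 172 CPM in control libraries, with a log2 fold change of 0.27 ± 0.076 (SE), an unadjusted p of 0.00469 and an edgeR adjusted p of 0.9995. In cluster 1 the values were 151, 152 and 136 CPM in cKO and 132, 134 and 131 CPM in control, a log2 fold change of 0.15. In cluster 2 they were 193, 199 and 209 CPM in cKO and 182, 190 and 158 CPM in control, a log2 fold change of 0.19. The lowest unadjusted edgeR p of any member was 0.112 in cluster 1 and 0.0982 in cluster 2. The groups of Ezh2 thus stood apart in these 3 clusters and overlapped in clusters 3 and 4, where the log2 fold changes were 0.10 and -0.12. Clusters 0, 1 and 2 come from the same libraries and hold most of the cells, so they are not independent repeats of the result in all cells. Genes with all cKO libraries higher made up 4.87%, 4.65% and 4.46% of those tested in clusters 0, 1 and 2, 5.27% in cluster 3 and 4.28% in cluster 4. The fold change of Ezh2 in clusters 1, 2 and 3 differed from that in cluster 0 by -0.11, -0.02 and -0.10 on the log2 scale, with unadjusted edgeR p of 0.142, 0.823 and 0.418, and in cluster 4, in a fit added after the values had been seen, by -0.38 ± 0.21 (SE), with an unadjusted p of 0.074. None of these differences passed the adjusted threshold.

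Across clusters the other members showed no called difference either. The edgeR adjusted threshold was passed by 0% of genes in each of clusters 0, 1, 2 and 3, and 3.88%, 3.37%, 4.04% and 3.37% of genes had an unadjusted p under 0.05. Among the members that count was 1 in cluster 0 (Ezh2) and 0 in clusters 1, 2 and 3. Members with a log2 fold change above 0 numbered 5, 6, 6 and 5 of 10 in clusters 0 to 3. In cluster 3, Max had 69.6, 67.7 and 76.4 CPM in cKO against 80.7, 77.2 and 101 CPM in control. It was lower in every cKO library, with a log2 fold change of -0.21 ± 0.19 (SE), and 4.29% of genes tested in cluster 3 were lower in this way. The control value of 101 CPM came from the 25 shallow cells of control 3 and rests on 16 UMIs. For the difference between clusters, the adjusted threshold was passed by 0.00997% of genes in cluster 1 against cluster 0 (Retn alone), 0% in cluster 2 and 0.00997% in cluster 3 (Ptn alone), and by no member. At an unadjusted p under 0.05 these shares were 4.0%, 4.38% and 5.82% of genes and 0 of 10 members, the lowest member p being 0.0555 for Suz12 in cluster 1.

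**Figure D2:**
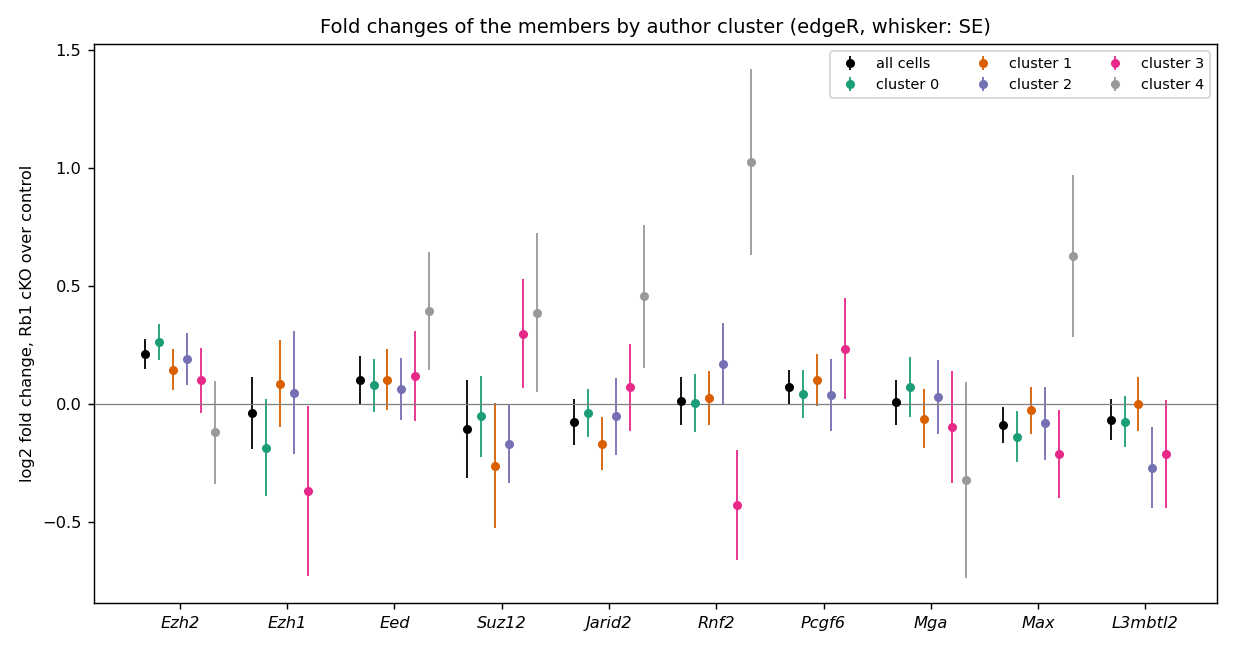
Log2 fold change of cKO over control (y axis) for each member in all cells and in each author cluster; points are edgeR estimates and whiskers their SE. Ezh2 lies above 0 in all cells and in clusters 0 to 3 and below 0 in cluster 4, and Rnf2 in cluster 4 is highest at 1.03, from 4 to 17 UMIs in a library.

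Ezh1, the EZH2 relative with weaker methyltransferase activity (chr11:101191115-101226463, minus strand), had 16.9, 16.1 and 19.8 CPM in cKO against 14.3, 19.99 and 19.9 CPM in control. The groups overlapped, with a log2 fold change of -0.04 ± 0.15 (SE). The ratio of Ezh2 to Ezh1 UMIs, which does not depend on how libraries are scaled, was 10.8, 11.5 and 9.16 in cKO libraries and 11.1, 7.84 and 7.86 in control libraries. Its mean log2 was higher in cKO by 0.24, with an exact two-sided permutation p of 0.3, where 20 labelings allow no p below 0.1. Ratios overlapped because control 1 stood with the cKO libraries. In cluster 4 the ratio was 6.75, 6.5 and 5.11 in cKO against 9.67, 12 and 7.38 in control, lower by 0.64 on the log2 scale with an exact permutation p of 0.1, on 3 to 9 Ezh1 UMIs in a library. Exact p in clusters 0, 1, 2 and 3 were 0.2, 0.7, 0.9 and 0.2.

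Eed, the PRC2 subunit that reads H3K27me3 (chr7:89954654-89980983, minus strand), had 87.2, 89.9 and 78.6 CPM in cKO against 68.2, 82.0 and 87.7 CPM in control, a log2 fold change of 0.10 ± 0.10 (SE). Its groups overlapped in all cells and in clusters 0 to 3. Suz12, its scaffold partner (chr11:79993106-80034123, plus strand), had 59.0, 53.7 and 53.6 CPM in cKO against 49.8, 47.1 and 80.6 CPM in control. Control 3 stood far above the other libraries, and the log2 fold change of -0.10 ± 0.21 (SE) became 0.19 without it, with an unadjusted p of 0.0613 by edgeR. Jarid2 (chr13:44729474-44921643, plus strand) had 87.2, 80.8 and 95.5 CPM in cKO against 83.6, 91.4 and 102 CPM in control, a log2 fold change of -0.07 ± 0.098 (SE), with overlapping groups.

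The height of Suz12 in control 3 was seen in all clusters. In clusters 0 to 4, control 3 had 78.4, 88.2, 68.4, 69.7 and 59.2 CPM, and controls 1 and 2 had 37.8 to 55.9 CPM over all clusters. It was the highest library in clusters 0 to 3 and the highest control library in cluster 4, where it lay just below the cKO libraries (61.0 to 77.8 CPM). Auts2, a PRC1 subunit gene, was also highest in control 3, at 72.5, 64.4 and 67.6 CPM in cKO and 47.2, 54.0 and 89.6 CPM in control. The Sertoli and endothelial markers named above were highest in the same library, as were the germ cell markers and the macrophage markers (3.23 CPM). Other marker sums peaked elsewhere: erythroid in control 1, Leydig and interstitial stroma (9.34 CPM) in control 2, and peritubular myoid (1.41 CPM) in cKO 1. The part of other cell types in these values was not tested.

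**Figure D3:**
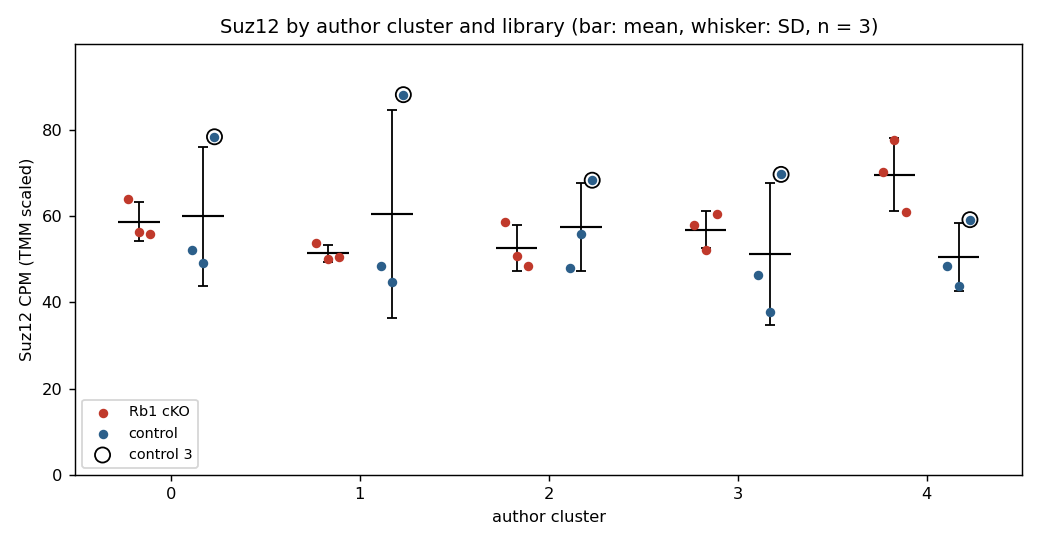
Suz12 CPM (y axis, from 0) by author cluster (x axis), with cKO libraries left of control libraries; points are libraries, bars the mean and whiskers the SD (n = 3 each), and control 3 is circled. Control 3 is the highest control library in each of the 5 clusters, at 59.2 to 88.2 CPM.

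The PRC1.6 genes lay close together between groups. Rnf2, the ubiquitin ligase (chr1:151458004-151500955, minus strand), had 58.4, 53.9 and 47.3 CPM in cKO against 54.5, 54.9 and 48.4 CPM in control. Pcgf6, the subunit that sets PRC1.6 apart (chr19:47033617-47050906, minus strand), had 65.0, 62.9 and 63.8 CPM in cKO against 63.0, 58.9 and 60.1 CPM in control. The 2 groups overlapped for both, with log2 fold changes of 0.01 ± 0.10 and 0.07 ± 0.074 (SE). Mga, the DNA-binding scaffold (chr2:119897228-119969581, plus strand), had 45.9, 45.04 and 52.5 CPM in cKO against 50.6, 47.8 and 44.4 CPM in control. Max, its dimer partner (chr12:76937269-76962201, minus strand), had 71.6, 77.4 and 72.4 CPM in cKO against 80.1, 80.5 and 74.6 CPM in control. L3mbtl2, a chromatin-compacting subunit (chr15:81663889-81688315, plus strand), had 47.0, 42.3 and 40.7 CPM in cKO against 46.0, 45.6 and 44.1 CPM in control. These 3 also overlapped, with log2 fold changes of 0.01 ± 0.095, -0.09 ± 0.077 and -0.07 ± 0.087 (SE).

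The levels of some members differed between clusters more than between groups. Clusters were made from these cells and genes, so their levels are a description with no test. Ezh2 averaged 196 ± 21.3 CPM in cluster 4, 189 ± 19.5 CPM in cluster 0, 189 ± 17.4 CPM in cluster 2, 171 ± 11.4 CPM in cluster 3 and 139 ± 9.65 CPM in cluster 1 (SD, n = 6). Cluster 1, led by mitotic genes, was below each other cluster in 6 of 6 libraries, and the order of clusters 4, 0 and 2 did not hold in all libraries. Max ran the other way and averaged 91.0 ± 5.40 CPM in cluster 1, 78.8 ± 12.1 CPM in cluster 3, 68.6 ± 9.46 CPM in cluster 2, 67.5 ± 6.46 CPM in cluster 0 and 57.1 ± 15.8 CPM in cluster 4. Cluster 1 was above clusters 0, 2 and 4 in 6 of 6 libraries and above cluster 3 in 5. Rnf2 in cluster 1 was above clusters 0 and 2 in 6 of 6 libraries, and L3mbtl2 in cluster 1 was above cluster 0 in 6 of 6. Mga averaged 55.7 ± 5.77 CPM in cluster 2 and was there above clusters 1 and 3 in 6 of 6 libraries. Eed averaged 136 ± 28.7 CPM in cluster 4, above each other cluster in 6 of 6 libraries, against 76.2 to 85.7 CPM on average in the others. For Ezh1, Suz12, Jarid2 and Pcgf6 no pair of clusters kept its order in 6 of 6 libraries, except that Ezh1 was lower in cluster 2 than in cluster 4. The median depth was 12329 to 15518 UMIs a cell over the 5 clusters.

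**Figure D4:**
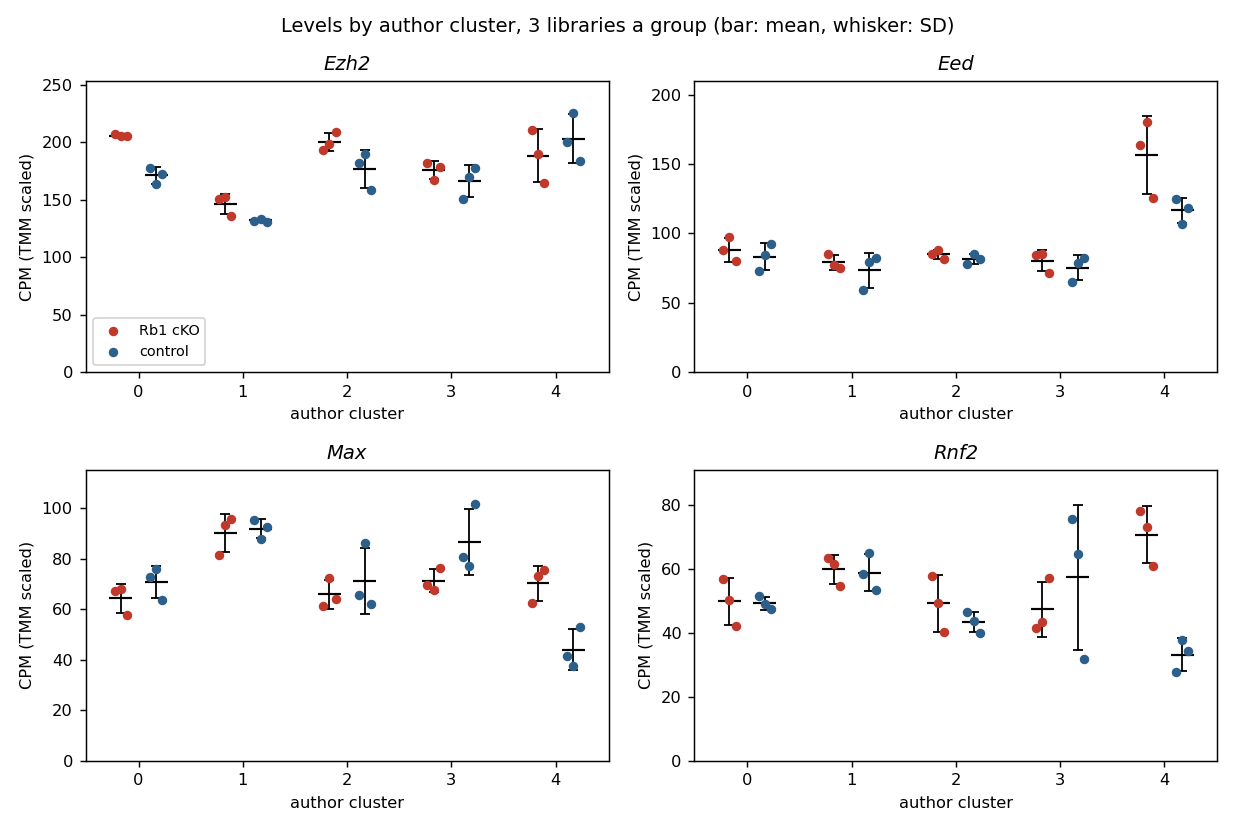
CPM of Ezh2, Eed, Max and Rnf2 (y axes, from 0) by author cluster (x axis), with cKO libraries left of control libraries; points are libraries, bars the mean and whiskers the SD (n = 3 each). Ezh2 is lowest and Max highest in cluster 1, Eed is highest in cluster 4, and Rnf2 in cluster 4 has cKO libraries at 61.0 to 78.1 CPM and control libraries at 27.6 to 37.6 CPM.

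Genes whose level followed a member most closely were ranked over 24 sums, 1 for each library in clusters 0 to 3, by Pearson correlation of log2(CPM + 1). These sums share libraries and depth, so r is given without p. Ezh2 was followed most closely by Slbp, which binds histone mRNA (r = 0.923), Smc6 (0.895) and the thymidine kinase gene Tk1 (0.891), and these held at 0.898 or more with library means removed. Max was followed by Blnk (0.776), Acin1 (0.772) and Nsun2 (0.760), and Rnf2 by Ppp4c (0.839), F11r (0.831) and Wdr1 (0.801). For Suz12 the closest gene was the chromatin remodeller gene Smarca5 (0.857), beside E2f1 (0.830) and Srsf9 (0.822). With library means removed these dropped to 0.355, 0.579 and 0.531. Eed was followed by Topbp1 (0.782), Mycbp2 (0.772) and Baz1b (0.752), which stood at 0.741, 0.355 and 0.575 with library means removed. Jarid2 was followed by Ptpn6 (0.784), Sptan1 (0.736) and Ccz1 (0.735). Lower values were reached by Mga with Tmem209 (0.752), Stk31 (0.708) and Adad2 (0.703), L3mbtl2 with Ctsb (0.728), Dhx38 (0.693) and Rrp7a (0.686), and Pcgf6 with Dvl2 (0.697), Hook1 (0.677) and Ahctf1 (0.665). Among the members themselves, r was -0.676 for Ezh2 with Max and 0.52 for Ezh2 with Eed, and it lay between these for every other pair of the 9 members with a mean of at least 20 CPM.

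Cluster 4 held 10, 18 and 20 cells in cKO libraries and 13, 10 and 27 in control libraries, too few for the planned test in 4 libraries. Fits of it were added after the values had been seen. In its sums 6 of 10 members, Ezh1, Eed, Suz12, Jarid2, Rnf2 and Max, were higher in every cKO library than in every control library. All of these but Ezh1, 5 members, were among the 2685 genes with enough counts to test, of which 4.28% were higher in this way. Rnf2, Suz12 and Max met the count filter through their cKO libraries, where they were high. Their place beside this share, and any p from the fits of cluster 4 alone, is therefore no support for a difference. Rnf2 had 78.1, 72.9 and 61.0 CPM in cKO against 27.6, 37.6 and 34.3 CPM in control, from 10, 15 and 17 UMIs in cKO and 4, 6 and 11 UMIs in control. The log2 fold change of 1.03 ± 0.39 (SE) had an unadjusted p of 0.0148 and an edgeR adjusted p of 0.9995. Eed had 164, 180 and 125 CPM in cKO against 124, 107 and 118 CPM in control, a log2 fold change of 0.40 ± 0.25 (SE). Of the 7 members with enough counts, 5 had a log2 fold change above 0 and none passed the adjusted threshold, which 0% of genes did, and 3.95% of genes had an unadjusted p under 0.05. Between cluster 4 and cluster 0 the fold changes of Rnf2 and Max differed by 1.05 and 0.76 on the log2 scale. Unadjusted edgeR p were 0.00826 and 0.0371, and the adjusted p was 0.9997 for both. Of all genes tested, 4.27% had an unadjusted p under 0.05 and 0% passed the adjusted threshold. In 8 alternative fits the unadjusted edgeR p was under 0.05 in 8 for Rnf2 and in 5 for Max, where it reached 0.168. This comparison uses the same cluster 4 sums, seen beforehand, so its p are no support for a difference either.

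The other subunits of these complexes gave no called gene in all cells. Of 10 PRC2 accessory genes, 6 had a log2 fold change above 0, with a median of 0.02, against 50.1% of all genes tested. The most abundant of them were Tceb2, at 1191, 1234 and 1218 CPM in cKO and 1247, 1277 and 1399 CPM in control, Tceb1 and the histone-binding Rbbp7, with log2 fold changes of -0.11, -0.03 and 0.17. Of 25 other PRC1 genes, 11 were above 0, with a median of -0.04, and Skp1a, Usp7 and Auts2 had log2 fold changes of 0.03, -0.04 and 0.09. Of 10 further PRC1.6 partners, 9 were above 0, with a median of 0.11, among them the heterochromatin protein genes Cbx1 and Cbx3 and the deacetylase gene Hdac2 at 0.12, 0.18 and 0.06. Without cKO 3 and control 3, 5 of these 10 were above 0. E2f6, which brings PRC1.6 to E2F sites, had 13.9, 12.8 and 14.9 CPM in cKO against 12.8, 11.2 and 13.7 CPM in control. Of 10 genes of the MAX network, most of whose products pair with MAX, 9 had enough counts and 2 were above 0, with a median of -0.11; Mycn, Mlx and Mxd4 had log2 fold changes of -0.12, -0.11 and 0.28. Enzymes that remove the marks, 6 genes, had 3 above 0, with Usp16, Mysm1 and Bap1 at -0.07, 0.05 and -0.15.

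Developmental regulators that carry H3K27me3 in stem cells had few UMIs for the most part. Of 16 such genes, 15 had a UMI in some library and 5 had enough counts to test, of which 2 had a log2 fold change above 0. Pax6 had 14.4, 9.02 and 15.05 CPM in cKO against 12.3, 12.8 and 24.5 CPM in control. The groups overlapped for it and for the mesoderm gene T, which had 1.58 to 2.85 CPM in cKO and 1.29 to 1.74 CPM in control. Hoxb4 had no UMI.

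Germline genes that PRC1.6 binds or represses in embryonic stem cells, a list of 20 taken from background knowledge, each had UMIs in all 6 libraries. In single clusters some were at or near 0, such as Stra8, with 21 UMIs in cluster 1 and none in cluster 4. It shares meiotic genes with lists already described for these data, so its direction is not independent evidence. All 20 had a log2 fold change above 0 in all cells, with a median of 0.28, against 50.1% of all genes and a median of 0.0001. None passed the edgeR adjusted threshold (lowest adjusted p 0.779), and 4, Taf7l, Smc1b, Hormad1 and Tuba3a, had an unadjusted p under 0.05, against 3.51% of all genes. The most abundant, Dazl, an RNA-binding germ cell regulator, had 1198, 1274 and 1240 CPM in cKO against 1234, 1161 and 931 CPM in control, with overlapping groups. In clusters 0 to 4, the genes above 0 numbered 20 of 20, 16 of 17, 15 of 17, 14 of 15 and 8 of 10, against 48.5% to 49.9% of all genes.

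This direction was less marked without the third library of each group. Of the 20 genes, 16 were highest in cKO 3 and 15 were lowest in control 3. These counts were 3 and 4 for the 25 other PRC1 genes, and 4 and 5 for the 10 further PRC1.6 partners. The shares over all genes were not counted. Without cKO 3, 17 of the 20 germline genes were above 0 with a median of 0.13. Without control 3, 20 of 20 were above 0 with a median of 0.19. Without both, in a comparison added after the values had been seen, 12 of 20 had a higher mean CPM in cKO 1 and 2 than in control 1 and 2, with a median of 0.05 on the log2(CPM + 1) scale, against 49.5% of all genes.

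In 3 of the 20 genes every cKO library was above every control library, against 4.71% of all genes tested. Smc1b, a meiotic cohesin subunit, had 233, 236 and 257 CPM in cKO against 195, 183 and 166 CPM in control, a log2 fold change of 0.42 ± 0.081 (SE) with an edgeR adjusted p of 0.779. Hormad1, a protein of the meiotic chromosome axis, had 50.1, 43.9 and 45.6 CPM in cKO against 39.2, 38.2 and 40.3 CPM in control, a log2 fold change of 0.24. Tuba3a, a testis tubulin with a near-identical copy in Tuba3b that may share its reads, had 236, 226 and 240 CPM in cKO against 198, 211 and 155 CPM in control, a log2 fold change of 0.32. Smc1b was higher in all cKO libraries in clusters 0, 1, 2 and 3 as well, and its groups overlapped in cluster 4. Of all genes tested in clusters 0 to 3, 4.87%, 4.65%, 4.46% and 5.27% were higher in this way. Hormad1 and Tuba3a were so in clusters 0 and 1 and overlapped in clusters 2, 3 and 4. In cluster 3, Smc1b had 234, 251 and 240 CPM in cKO against 146, 175 and 146 CPM in control. The value of control 3 there came from its 25 shallow cells. Stra8, which germ cells need to enter meiosis, was highest in cKO 3 and had 2.60, 2.22 and 17.4 CPM in cKO against 5.57, 9.54 and 2.39 CPM in control, and 451 of its 510 UMIs were in cluster 0.

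**Figure D5:**
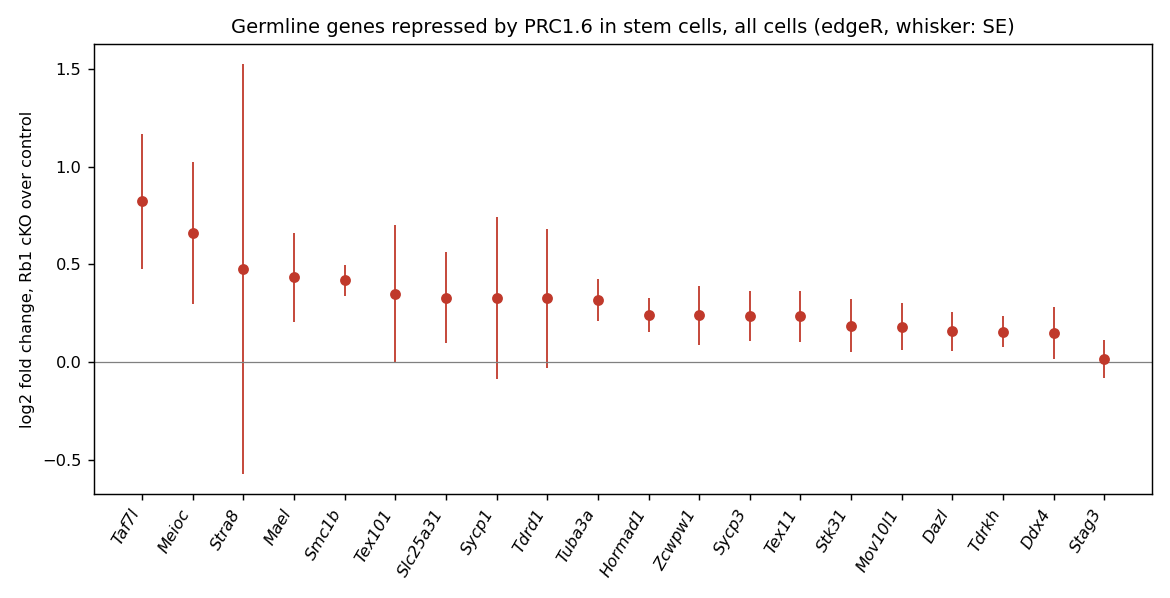
Log2 fold change of cKO over control in all cells (y axis) for the 20 germline genes on the x axis; points are edgeR estimates and whiskers their SE. All 20 points lie above 0, from 0.02 to 0.82, and none passed the adjusted threshold.

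The promoters of the 3 genes are shown because each holds an E2F motif and that of Hormad1 also the E-box that MGA and MAX read. They are written from 250 bases before to 20 bases after the start as annotated by RefSeq on GRCm38.p6. Capitals mark TTCCCGC, its reverse complement GCGGGAA or the E-box CACGTG. Smc1b is at chr15:85131938-85132207, minus strand, Hormad1 at chr3:95559427-95559696, plus strand, and Tuba3a at chr6:125286062-125286331, minus strand.
Smc1b: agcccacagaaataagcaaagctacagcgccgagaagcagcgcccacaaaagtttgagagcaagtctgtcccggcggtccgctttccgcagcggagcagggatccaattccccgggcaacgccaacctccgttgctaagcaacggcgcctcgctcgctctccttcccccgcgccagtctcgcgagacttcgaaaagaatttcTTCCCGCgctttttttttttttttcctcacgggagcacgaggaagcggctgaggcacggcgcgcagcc
Hormad1: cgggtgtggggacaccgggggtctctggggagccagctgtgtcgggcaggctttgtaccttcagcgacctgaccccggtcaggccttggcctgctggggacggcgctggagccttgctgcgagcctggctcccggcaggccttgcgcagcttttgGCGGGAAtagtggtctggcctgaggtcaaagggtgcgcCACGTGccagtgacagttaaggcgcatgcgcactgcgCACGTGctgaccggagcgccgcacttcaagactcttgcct
Tuba3a: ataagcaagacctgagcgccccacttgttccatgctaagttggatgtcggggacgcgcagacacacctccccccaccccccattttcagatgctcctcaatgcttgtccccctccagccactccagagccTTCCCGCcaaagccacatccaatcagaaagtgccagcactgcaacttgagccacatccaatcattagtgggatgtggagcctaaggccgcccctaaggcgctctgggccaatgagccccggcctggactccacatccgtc
Smc1b and Tuba3a each hold the E2F motif, and Hormad1 holds it with 2 E-boxes. TTCCCGC or TTGGCGC stood in 10 of the 19 genes of the list that had a promoter sequence. Stag3, Ddx4 and Slc25a31 hold both of these motifs and CACGTG, and their groups overlapped in all cells. Stag3 had the lowest log2 fold change of the list, 0.02. Whether the motifs bear on the differences between groups was not tested. The table held 24 promoters for 19 of the 20 genes, and Tex11 was not matched. Of these, 58.3% held CACGTG, against 7.15% of all promoters, 37.5% held TTCCCGC, against 4.6%, 20.8% held TTGGCGC, against 2.45%, and 45.8% held TCCCGC, against 20%. Both TCCCGC and CACGTG stood in 33.3%, against 1.99% of all promoters. The list was put together from genes known to be bound in stem cells, so these shares describe how it was chosen.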

How the data were processed

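UMIs were counted by the authors, who deposited raw counts for 27998 genes in 5160 barcodes with a table of each barcode's library and cluster number. Per the submitters' processing notes, Cell Ranger, Seurat 3.0 and mm10 were used, and parameters and annotation release were not given in the sources used here. Of these, 6 barcodes with fewer than 500 genes or with 10% or more mitochondrial UMIs were removed. Scrublet (scanpy 1.11.5) called 139 doublets (2.70%), which were kept.

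Counts were summed per library, over all cells and within each author cluster with at least 20 cells in every library, and compared by edgeR 4.0.16 (R 4.3.3) with its two-sided quasi-likelihood F-test (TMM factors, filterByExpr, robust dispersion, no covariate), with Benjamini-Hochberg adjustment over all genes tested and a threshold of 0.05. Differences between clusters were tested as interactions with the library as a block. CPM are TMM scaled. The self-test ran on simulated data. Alternatives used DESeq2 1.42.0, limma 3.58.1, other factors, filters and cell sets, and left out each library. Replicate numbers were not taken as pairs.

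The members and gene lists were chosen with earlier results of these data known, among them the difference in Ezh2, so none is independent support. Named beside the members were the 3 most abundant genes of each list, the 3 genes most like each member with a mean of at least 20 CPM, and genes past a threshold; all others were named after their values were seen. The values of 1 gene that this rule names are not reported here. Gene coordinates are those of GENCODE on GRCm38.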

Additional observations from a re-analysis of the deposited data

How the results depend on the processing

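No member passed the adjusted threshold under any alternative. The count of genes called in all cells, 0 by edgeR, was 3 with DESeq2, 6 without a low-count filter and 0 to 4 with each library left out. Without that filter it was 15, 8, 3 and 17 in clusters 0 to 3, and with each library left out it ran from 0 to 2, 0 to 2, 0 to 2 and 0 to 3, and from 0 to 1 in cluster 4, whose fits were chosen after seeing the data. With the replicate number as a replicate block it was 1 in cluster 3 and 0 in all cells and in clusters 0, 1, 2 and 4. The deviations of same-numbered libraries from their group means correlated at -0.145, 0.257 and 0.191, and cKO 2 and cKO 3 correlated best with the control of their own number and cKO 1 with control 3. Genes called for a difference from cluster 0 numbered 3, 1, 2 and 1 in clusters 1 to 4 without the filter, and 0 to 4, 0 to 1, 0 to 23 and 1 to 6 with each library left out, the 23 being without control 1. The cause was not tested. The Ezh2 to Ezh1 log2 difference stayed between 0.16 and 0.41, and with the replicate block it was 0.24 (exact paired permutation p of 0.5).

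Directions turned for members near 0. With each library left out, log2 fold changes ran from -0.18 to 0.054 for Ezh1, -0.24 to 0.19 for Suz12, -0.14 to 0.0079 for Jarid2, -0.056 to 0.095 for Rnf2 and -0.066 to 0.056 for Mga, and the Ezh2 difference of cluster 2 from cluster 0 from -0.14 to 0.046. The same held for Tceb1 (-0.098 to 0.033), Auts2 (-0.085 to 0.43), Skp1a (-0.014 to 0.061), Usp7 (-0.088 to 0.0022), Cbx3 (-0.26 to 0.53), Pax6 (-0.57 to 0.030), Mysm1 (-0.091 to 0.12) and Usp16 (-0.13 to 0.0056). With equal cell numbers per cluster Pcgf6 was -0.012, Mysm1 -0.0087 and Usp16 0.0099. Of 570 alternative values for 45 gene results, 546 kept their direction and side of the threshold and 24 turned.

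Depth limits Ezh1 and every member in cluster 4, where counts of 2 to 59 UMIs a library stand behind a value. PCR duplicates are removed by UMIs, and intervals from counts would cover counting error only.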

Other observations

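Several genes of these complexes differed between libraries of the same group more than between groups, and were picked out after their values had been seen. Cbx3, the HP1-gamma gene of PRC1.6, had 326, 215 and 555 CPM in cKO libraries and 245, 261 and 463 CPM in control libraries, and was the sixth leading gene of cluster 3. Kdm6b, an H3K27 demethylase gene, had 8.06, 8.08 and 7.28 CPM in cKO libraries and 9.04, 7.61 and 1.62 CPM in control libraries, with control 3 the lowest. Rybp, whose product binds H2A ubiquitin in variant PRC1, had 8.43, 7.84 and 8.68 CPM in cKO libraries and 9.78, 8.25 and 17.9 CPM in control libraries. Pcgf2 had 13.6, 8.07 and 15.9 CPM in cKO libraries and 15.5, 13.7 and 24.2 CPM in control libraries. In the last 3 genes control 3 stood apart from controls 1 and 2, as it did for Suz12 and Auts2.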
